A study of Mus musculus with 5 samples.

Results

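The natriuretic peptide system was examined in neonatal mouse hearts through 6 genes: Nppa and Nppb, which encode the cardiac peptides ANP and BNP, Npr1, Npr2 and Npr3, which encode natriuretic peptide receptors, and Corin, which encodes the protease that cleaves the ANP precursor. These 6 genes were chosen by name out of 49671 listed in the counts, and all 6 had enough counts to be tested. RNA was sequenced from whole hearts of C57BL6/J littermates at postnatal day 2 (PN2). Each of the 3 libraries from Charme WT animals (WT pools) combined 9 hearts, and each of the 2 libraries from Charme KO animals (KO pools) combined 3, which means that pool size and genotype cannot be told apart. Charme is a long noncoding RNA of striated muscle, and the Charme KO allele carries a PolyA signal inserted in its gene. The label of the tissue was met by its defining genes, since Myl2, the ventricular myosin light chain, had a mean of 4210.2 FPKM (fragment counts scaled to the exon length of the gene and, with TMM factors, to the depth of the pool) in WT pools, and Myl7, its atrial counterpart, 499.5 FPKM.

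ANP and BNP are made by cardiomyocytes as precursors and released when the wall of the heart is stretched. In the fetus Nppa is transcribed in atria and in the trabeculae of the ventricles, and after birth its ventricular level declines, while both genes return in the ventricle under load. Corin on the cardiomyocyte surface cleaves pro-ANP. NPR1 is the guanylyl cyclase that binds ANP and BNP, NPR2 is the guanylyl cyclase for the related peptide CNP, and NPR3 binds all of these peptides and clears them without a cyclase domain. The cyclic GMP that NPR1 and NPR2 make relaxes vessels and restrains the growth of cardiomyocytes and fibroblasts.

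Nppb and Nppa lie side by side on the plus strand of chromosome 4 of GRCm38, Nppb from 147985788 to 147987205 and Nppa from 148000722 to 148002079, with 13.5 kb between them. Their promoters are shown because these are the peptide genes of the heart and neighbours in the genome. The sequences are from RefSeq (GRCm38.p6), plus strand, and capitals mark the letters of the motifs searched on both strands of the 300-base windows, 250 bases before to 50 after the RefSeq start, so that TTATC is GATAA read on the minus strand. All 6 genes had a window. The Nppa sequence ends at the base before its annotated first exon, and the Nppb stretch lies within the 5′ UTR of the first exon in GENCODE M21, which starts Nppb upstream of the RefSeq start.

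Nppa, chr4:148000472-148000721, the 250 bases before the start: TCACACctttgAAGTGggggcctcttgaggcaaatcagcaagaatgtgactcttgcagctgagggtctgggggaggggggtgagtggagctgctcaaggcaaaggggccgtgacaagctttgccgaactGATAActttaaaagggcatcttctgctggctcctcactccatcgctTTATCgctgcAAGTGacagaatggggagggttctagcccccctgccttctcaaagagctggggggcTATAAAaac
Nppb, chr4:147985798-147985827, a stretch of 30 bases around its GATAA letters: atgcagctGATAAatcagaGATAAccccac

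The letters GATAA, the core that GATA factors bind, occurred at 2 places in each of these windows, from -121 and -75 in Nppa and from -94 and -83 in Nppb, counted back from the RefSeq start. They occur in 25.4% of all 32851 windows. Nppa also held AAGTG, the core of an NKX2-5 element, at 2 places (46.4% of windows), and TCACAC, part of a T-box element, at 1 place (14.5%). Nppb had neither, and held CATTCC, the core of an M-CAT element, on its minus strand at 1 place (14.7%). TATAAA was found in both windows (13.6% of all) and the CArG box, which serum response factor binds, in neither (1.63%). The windows of Npr1, Npr2, Npr3 and Corin had no match to any of these motifs. These matches are letters in a window and not sites shown to be bound.

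The pools held between 16721055 and 21646378 fragments counted on genes. Charme had 183 to 810 counts in WT pools and 57 and 79 in KO pools, fitted at -2.49 on the log2 scale (standard error, SE, of 0.549 and adjusted p = 0.0763). All log2 fold changes are KO over WT from the quasi-likelihood test of edgeR, and p-values were adjusted by the Benjamini-Hochberg method across the 14880 genes that had at least 10 counts in at least 2 pools. The call required an adjusted p under 0.1 together with a mean of at least 1 FPKM in 1 genotype or both. Both KO pools held transcripts of salivary gland genes, KO pool 2 the most. A list of 14 salivary genes took 2.60% of the counts of KO pool 2 after normalization and 0.0355% in KO pool 1, against at most 0.000389% in WT pools. Of the genes tested for other tissues, 7 of 9 adipose and 4 of 10 skeletal muscle genes were called upward, against 1.53% of all genes tested. The result of each member is therefore also given without KO pool 2 where that pool decides it. KO pool 1, which remains in that fit, is not free of such transcripts. Erythroid genes summed to 2284 and 1619 CPM (counts scaled to the depth of the pool with TMM factors, not to gene length) in the KO pools and to 870.1 to 1254 CPM in the WT pools. Of the 7 erythroid genes tested, 3 were called upward. Both KO pools lay above every WT pool for 6 of them, against 17.8% of all genes tested. The part of erythroid genes in the results below was not tested.

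Of the 6 genes, Nppb rose and Npr2 fell in KO hearts. Nppa was higher and Npr1 lower in both KO pools than in every WT pool without passing the threshold, and Npr3 and Corin overlapped between the genotypes. Thus 2 of 6 genes were called, 1 in each direction, against 2.05% of all genes tested, 1.53% upward and 0.524% downward. The KO pools lay beyond every WT pool for 4 of the 6, against 36% of all genes tested, with 17.8% above and 18.2% below. An unadjusted p under 0.05 was reached by 3 of the 6, against 18.6% of all genes.

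**Figure D1:**
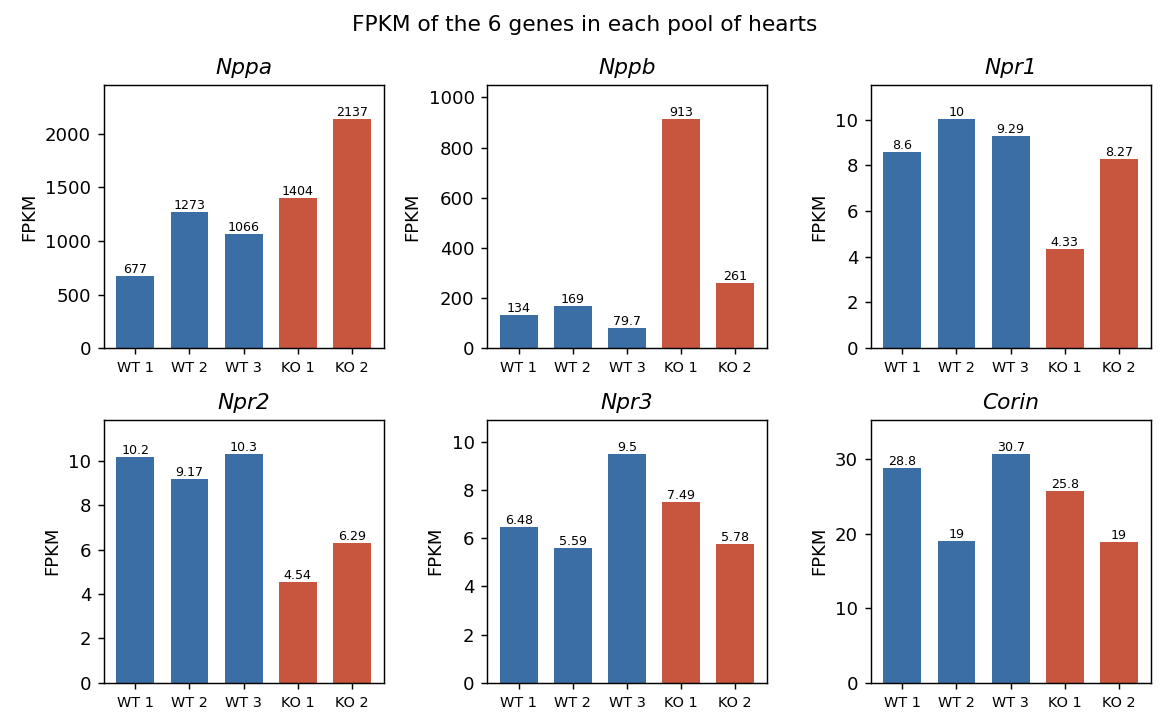
Level of each gene in FPKM (vertical axis, from 0, a separate scale for each gene) in the 3 WT pools (blue) and the 2 KO pools (red), 1 bar per pool. Nppb stands out in KO pool 1 at 913 FPKM, Nppa is highest in KO pool 2, and Npr2 is at 4.54 and 6.29 FPKM in the KO pools and at 9.17 FPKM or more in the WT pools.

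Nppb, the gene of BNP, had 2149, 2337 and 1231 counts in WT pools 1 to 3, and 10061 and 4555 counts in KO pools 1 and 2. Per length this was 134, 169 and 79.7 FPKM against 913 and 261 FPKM. Both KO pools were above every WT pool, with KO pool 1 at 3.49 times the level of KO pool 2. The means were 128 ± 45.1 FPKM (SD, n = 3) in WT and 587 ± 460 FPKM (SD, n = 2) in KO hearts. The log2 fold change was 2.20 (SE 0.449, 95% interval 1.20 to 3.20, adjusted p = 0.0633 in the quasi-likelihood test), or 4.6-fold. By its mean FPKM Nppb moved from rank 349 among the 14880 genes tested in WT hearts to rank 78 in KO hearts.

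The size of the Nppb change rested on KO pool 1: without it the log2 fold change was 1.04 (adjusted p = 0.0696), and without KO pool 2 it was 2.83 (adjusted p = 0.000204), the quasi-likelihood call being kept in both. The call was lost without WT pool 1 (adjusted p = 0.203), without WT pool 3 (0.303), and with robust estimation (0.156). The fits that leave a pool out differ in how much they call over all genes, with 2 calls without WT pool 1, 187 without WT pool 2, 0 without WT pool 3 (1315 at an unadjusted p under 0.05 in edgeR), 639 without KO pool 1 and 4607 without KO pool 2. Within the genotypes Nppb had a pooled SD of 0.86 on the log2 CPM scale, larger than that of 98.7% of the genes tested.

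Nppa, the gene of ANP, was the most abundant of the 6 per length, at rank 26 of all genes tested in WT hearts and rank 19 in KO hearts. It had 12064, 19449 and 18230 counts in WT pools 1 to 3, and 17143 and 41229 in KO pools 1 and 2. In FPKM these were 677, 1273 and 1066 against 1404 and 2137. The lower KO pool was 1.10 times the highest WT pool, a gap that is absent when counts are scaled by the total alone, where that ratio is 0.906. The means were 1005 ± 302 FPKM (SD, n = 3) and 1770 ± 518 FPKM (SD, n = 2), which gave a fitted log2 difference of 0.82 (SE 0.293, 95% interval 0.16 to 1.47, adjusted p = 0.199 in the quasi-likelihood test). Nppa was thus not called with all pools. Without KO pool 1 it was at 1.09 (adjusted p = 0.0526) and past the threshold, without KO pool 2 it was at 0.48 (0.234), and DESeq2 called it with all pools (0.0631).

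The levels of the peptide genes did not run in parallel over the KO pools. Nppb was highest in KO pool 1 and Nppa in KO pool 2. There were 5.61, 8.32 and 14.8 Nppa fragments for each Nppb fragment in WT pools 1 to 3, and 1.70 and 9.05 in KO pools 1 and 2. The ratio of KO pool 2 was inside the range of the WT pools, and that of KO pool 1 was below it. On the log2 scale the ratio of Nppb to Nppa was -3.14 ± 0.704 (SD, n = 3) in WT and -1.97 ± 1.70 (SD, n = 2) in KO pools, a difference of 1.17 with an exact two-sided permutation p of 0.5, where the smallest p that the 10 assignments allow is 0.1. Without KO pool 1 the difference was -0.03, and without KO pool 2 it was 2.38. Nppa and Nppb together took 0.0706%, 0.127% and 0.107% of the counts in WT pools and 0.163% and 0.212% in KO pools.

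**Figure D2:**
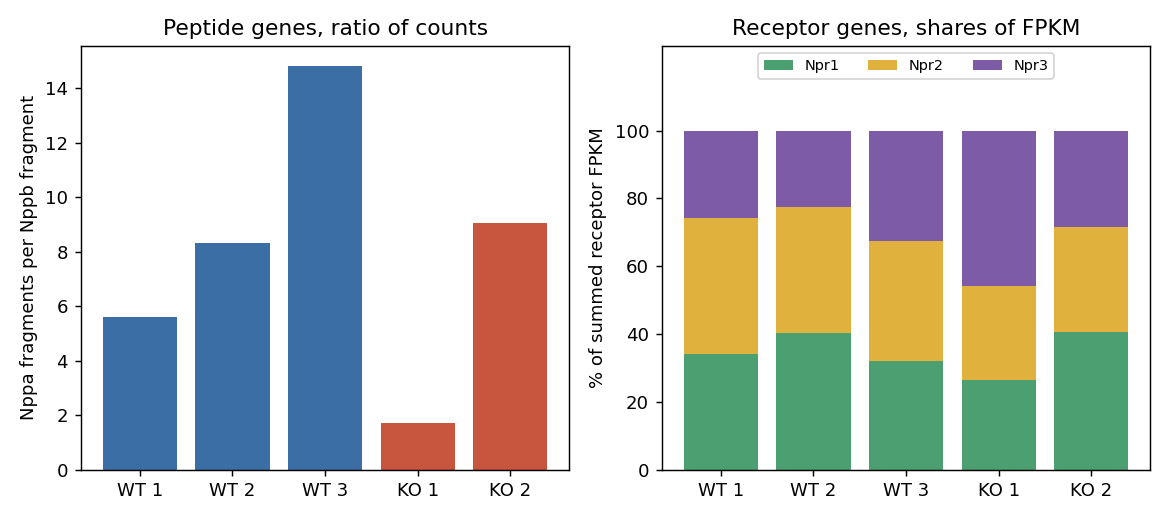
Left, the number of Nppa fragments counted for each Nppb fragment (vertical axis, a ratio of counts from 0) in each pool, and right, the share in percent of Npr1, Npr2 and Npr3 in their summed FPKM in each pool. The left panel shows the lowest ratio, 1.70, in KO pool 1 and 9.05 in KO pool 2, and the right panel shows the share of Npr3 at 45.8% in KO pool 1 against 22.6% to 32.7% in WT pools.

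Among the 16 other tested genes reported within 200 kb of the peptide genes none was called, and their log2 fold changes ran from -1.59 to 0.82 with the lowest adjusted p at 0.194 in the quasi-likelihood test. An unadjusted p under 0.05 was reached by 1 of them, against 18.6% of all genes tested, and the likelihood ratio test and DESeq2 called 0. Of these, 1 lay above and 3 below every WT pool in both KO pools, against 17.8% and 18.2% of all genes. Plod1 and 2510039O18Rik, the tested genes next to Nppb on its far side from Nppa, were at -0.12 (SE 0.168) and -0.18 (SE 0.209). Clcn6, a chloride transporter gene downstream of Nppa, was at -0.04 (SE 0.206). Agtrap, which encodes a protein that binds the angiotensin receptor, was at -0.52 (SE 0.181, adjusted p = 0.194). The lowest value, -1.59, belonged to the pseudogene Chchd2-ps, with at most 20 counts in a pool. The highest value, 0.82, belonged to Gm13054, which overlaps Nppa on the opposite strand. It had 14, 16 and 18 counts in WT pools and 14 and 41 in KO pools, between 0.0817% and 0.116% of the Nppa counts of the same pool, and is uncertain because a small share of Nppa reads assigned to the wrong strand would give such counts.

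**Figure D3:**
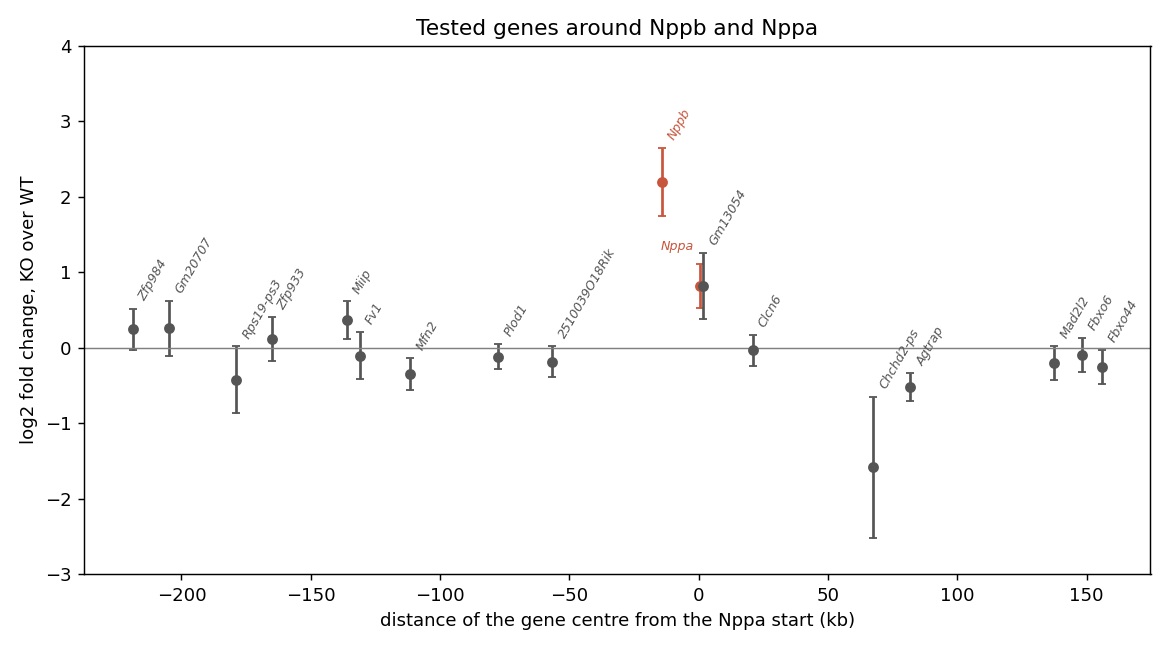
Log2 fold change, KO over WT (vertical axis, bars of 1 standard error), of the 18 tested genes reported around the peptide genes against the distance in kb of the gene centre from the Nppa start. Nppb at 2.20 and Nppa at 0.82 (red) stand beside genes that were not called, all but Gm13054, Chchd2-ps and Agtrap lying between -0.42 and 0.37.

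In WT hearts the receptor genes were measured at similar levels per length, with Npr2 at 9.88 ± 0.619, Npr1 at 9.30 ± 0.712 and Npr3 at 7.19 ± 2.05 FPKM (SD, n = 3). The ranges of all 3 overlapped, so their order is not beyond the spread between pools. Corin stood above them at 26.2 ± 6.26 FPKM, Nppb above Corin, and Nppa above Nppb, without overlap in any of the WT pools. In KO pools the same steps held from the receptors to Corin, Nppb and Nppa. The receptors summed to 24.8 to 29.1 FPKM in WT pools and to 16.4 and 20.3 FPKM in KO pools.

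Npr2, the receptor of CNP, lies on chromosome 4 from 43631935 to 43651244, far from the peptide genes. It had 978, 756 and 950 counts in WT pools 1 to 3, and 299 and 655 in KO pools 1 and 2. In FPKM these were 10.2, 9.17 and 10.3 against 4.54 and 6.29, so the higher KO pool was at 0.686 times the lowest WT pool. The mean fell from 9.88 ± 0.619 (SD, n = 3) to 5.42 ± 1.24 FPKM (SD, n = 2), which gave a fitted log2 difference of -0.86 (SE 0.207, 95% interval -1.33 to -0.40, adjusted p = 0.0958 in the quasi-likelihood test). The WT pools were within 1.12 times of each other, and the pooled SD of Npr2, 0.20 on the log2 CPM scale, was larger than that of 35.8% of the genes tested.

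The call of Npr2 was close to the threshold and was lost without any 1 of the WT pools (adjusted p from 0.187 to 0.448), under edgeR's legacy setting (0.102) and with robust estimation (0.108). The fall itself was at -0.65 without KO pool 1 (adjusted p = 0.0979) and at -1.13 without KO pool 2 (0.00463), called in both. It was also called by the likelihood ratio test (0.0138) and DESeq2 (0.00919). Its ligand gene Nppc was near the limit of detection, with 2 to 11 counts in WT pools and 4 and 18 in KO pools.

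Npr1, the receptor of ANP and BNP, lies on chromosome 3 from 90450591 to 90465866 on the minus strand. It had 847, 847 and 878 counts in the WT pools and 292 and 882 in the KO pools, or 8.60, 10.02 and 9.29 FPKM against 4.33 and 8.27 FPKM. KO pool 1 was far below the WT pools, and KO pool 2 was just below the lowest of them, at 0.961 times its level. The log2 fold change was -0.56 (SE 0.263, 95% interval -1.14 to 0.03, adjusted p = 0.288 in the quasi-likelihood test). It was called without KO pool 2 at -1.11 (adjusted p = 0.00497), and was at -0.17 without KO pool 1 (0.744), so its difference rested on KO pool 1. The fit without KO pool 2 called 4607 of 14536 genes, so a call in it is common. Npr1 is known from vascular endothelium and smooth muscle as well as from cardiomyocytes. Both KO pools lay below every WT pool for 5 of 10 markers of smooth muscle and pericytes, against 18.2% of all genes tested. They lay above for 1, against 17.8%. Against 0.02 over all genes, the median log2 fold change of these markers was -0.52. Of these, Pdgfrb, a growth factor receptor of pericytes, was at -0.74 (adjusted p = 0.214), and Notch3, a receptor of mural cells, at -0.99 (adjusted p = 0.149), the latter called by the likelihood ratio test and DESeq2. Cnn1, the smooth muscle calponin, went the other way and was called at 1.04 (adjusted p = 0.0521). The summed level of this list, 1347 to 2339 CPM in WT pools and 1615 and 1812 CPM in KO pools, overlapped and was carried by Acta2, the smooth muscle actin, at 503 to 1538 CPM in WT pools. Of 12 markers of coronary and capillary endothelium 9 were lower and 3 higher, with a median of -0.28. Both KO pools lay below every WT pool for 3 and above for 0, against 18.2% and 17.8% of all genes tested. The quasi-likelihood test of edgeR called none, with 3 at an unadjusted p under 0.05, against 18.6% of all genes. DESeq2 called 2 and the likelihood ratio test 1, against 1122 and 933 of all 14880 genes tested. Cldn5, an endothelial tight junction gene called by both of these, was at -0.70 (adjusted p = 0.137), and Kdr, a VEGF receptor, at -0.64 (0.206). The 3 higher genes were Pecam1 at 0.07, Ly6c1 at 0.14 and Fabp4 at 0.53 (adjusted p = 0.841, 0.774 and 0.270 in the quasi-likelihood test). The sum of the 12 markers, 2335 to 2581 CPM in WT and 2299 and 2680 CPM in KO pools, was mostly Cd36 and Fabp4, genes of fatty acid handling. Fabp4 is also on the adipose list. The markers named here were chosen after their values were seen, and the part of vascular cells in the levels of Npr1 and Npr2 was not tested. In bulk RNA, fewer cells of a type and less RNA per cell cannot be told apart.

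Npr3, the clearance receptor, lies on chromosome 15 from 11839896 to 11907287 on the minus strand and is a marker of endocardium. It had 1253, 928 and 1763 counts in WT pools and 993 and 1211 in KO pools. The 6.48, 5.59 and 9.50 FPKM of the WT pools enclosed the 7.49 and 5.78 FPKM of the KO pools. The log2 fold change was -0.12 (SE 0.244, 95% interval -0.66 to 0.43, adjusted p = 0.821 in the quasi-likelihood test), and its sign turned without WT pool 3 (0.14) or without KO pool 2 (0.05). The difference was not detectable, and changes within that interval could not be seen with these pools. Other endocardial markers without Npr3 summed to 767 to 901 CPM in WT pools and to 611 and 812 CPM in KO pools. Of the 15 endocardial genes of the list, Npr3 included, none was called by the quasi-likelihood test, the likelihood ratio test or DESeq2. An unadjusted p under 0.05 was reached by 2 of them, against 18.6% of all genes tested. The median log2 fold change of the list was -0.17 against 0.02 over all genes tested. Among its most abundant genes, Klf2, a flow-responsive transcription factor, was at -0.69 (adjusted p = 0.228), Cdh5, the endothelial cadherin, at -0.40 (adjusted p = 0.377), and Plvap, a protein of endothelial fenestrae, at 0.03 (adjusted p = 0.968). The 2 genes under the unadjusted threshold went in opposite directions, Klf2 lower and Emcn, an endothelial sialomucin, higher at 0.52 (adjusted p = 0.256).

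Corin lies on chromosome 5 from 72300025 to 72504473 on the minus strand. It had 3198, 1815 and 3277 counts in WT pools and 1966 and 2284 in KO pools, or 28.8, 19.0 and 30.7 FPKM against 25.8 and 19.0 FPKM. The lowest WT pool and KO pool 2 were level, and the groups overlapped. The log2 fold change was -0.23 (SE 0.238, 95% interval -0.76 to 0.30, adjusted p = 0.627 in the quasi-likelihood test). In fits without 1 of the pools it ran from -0.46 to -0.03, and it was not called in any of these fits.

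**Figure D4:**
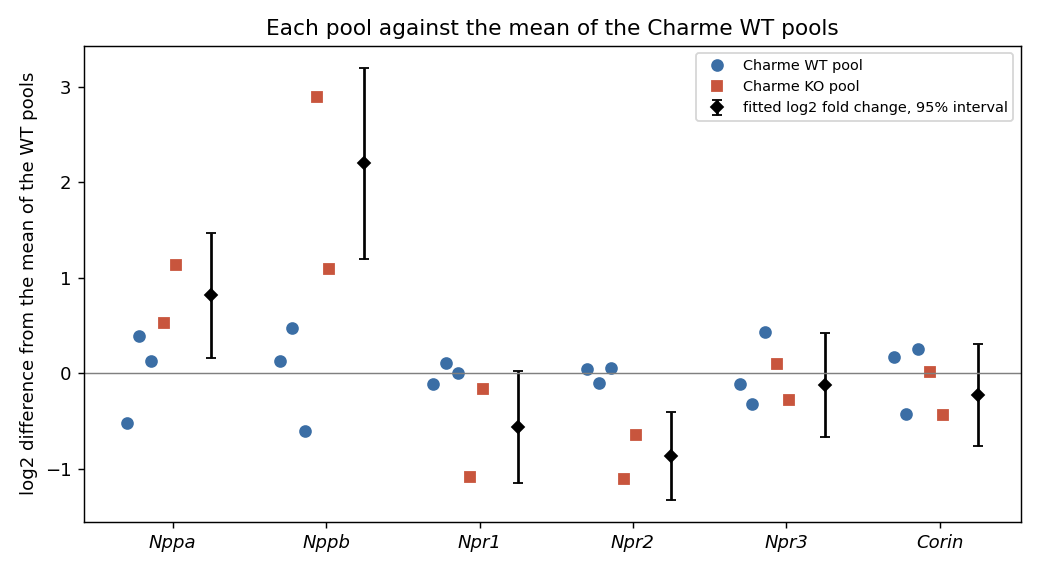
Log2 difference of each pool from the mean of the WT pools (vertical axis) for the 6 genes, with circles for WT pools, squares for KO pools, and a diamond for the fitted log2 fold change with its 95% interval from the quasi-likelihood fit. Both squares lie above the circles for Nppa and Nppb and below them for Npr1 and Npr2, and among the circles for Npr3 and Corin, apart from Corin in KO pool 2, at the lowest circle.

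The shares of the receptors differed mainly in KO pool 1. Npr3 made up 25.7%, 22.6% and 32.7% of the summed receptor FPKM in WT pools, and 45.8% and 28.4% in KO pools. Npr2 made up 40.3%, 37.0% and 35.4% against 27.7% and 30.9%, lower in both KO pools. Npr1 made up 34.0%, 40.4% and 31.9% against 26.4% and 40.6%, with KO pool 2 at the top of the range. These shares are a description, since Npr1 and Npr3 alone were not called.

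The rest of the pathway was described with 26 genes of peptide processing, peptide degradation and cyclic GMP signalling, of which 22 passed the count filter. There was no call among these 22, and 4 of them reached an unadjusted p under 0.05 in the quasi-likelihood test of edgeR, against 18.6% of all genes tested. The likelihood ratio test and DESeq2 each called 1, Pde3b, named here after its values were seen. Over all 14880 genes tested these tools called 933 and 1122. The median log2 fold change of the 22 was -0.10 against 0.02 over all genes, with 10 higher and 12 lower. Both KO pools lay above every WT pool for 3 and below for 5. These 8 of 22 stand near the 36% of all genes tested that lay beyond in either direction. Furin, the protease that cleaves pro-BNP, was measured at 17.5, 21.4 and 21.7 FPKM in WT and at 8.69 and 16.3 FPKM in KO pools, a log2 fold change of -0.69 (SE 0.259, adjusted p = 0.214). Like Npr1 and Npr2 it was lowest in KO pool 1. Pcsk6, which activates corin, was at -0.38 (SE 0.261, adjusted p = 0.446), with 2.96 FPKM in KO pool 1 and 5.42 FPKM in KO pool 2, the latter inside the range of the WT pools.

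Among the genes of peptide degradation, Ide, the insulin-degrading enzyme, was at 0.13 (adjusted p = 0.771) and Ece1, an endothelin-converting enzyme, at -0.22 (0.699). Mme, the gene of neprilysin, which degrades ANP, was chosen here after its values were seen. It had 76, 53 and 66 counts in WT pools and 98 and 261 in KO pools, a log2 fold change of 1.49 (SE 0.305, adjusted p = 0.0646 in the quasi-likelihood test), but its mean of 0.290 FPKM in WT and 0.808 FPKM in KO hearts was below the FPKM threshold. It was highest in KO pool 2, the pool with the most salivary gland RNA, and the part of that tissue was not tested.

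For the enzymes that turn the receptor signal over, the subunits of the soluble guanylyl cyclase were at -0.34 for Gucy1a1 (adjusted p = 0.385) and 0.49 for Gucy1b1 (0.361), the latter with 15.6 FPKM in KO pool 1 and 7.55 FPKM in KO pool 2. Pde3a, a phosphodiesterase that cyclic GMP inhibits, was at -0.45 (SE 0.200, adjusted p = 0.263). Pde3b, its relative, had 1.69, 1.74 and 1.69 FPKM in WT pools and 2.78 and 2.91 FPKM in KO pools, higher in both at 0.74 (SE 0.194, adjusted p = 0.121 in the quasi-likelihood test). Pde1c, another phosphodiesterase, was at 0.22 (0.646). Rgs2, a regulator of G protein signalling that cyclic GMP-dependent kinase acts on, was at 0.38 (SE 0.201, adjusted p = 0.336), and Vasp, a substrate of that kinase, at -0.16 (SE 0.183, adjusted p = 0.646).

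Because Nppa is an atrial and trabecular gene in the neonatal heart, markers of these cells were read beside it. The 18 atrial genes summed to 3097, 2624 and 3370 CPM in WT pools and to 4279 and 4184 CPM in KO pools, higher in both. Much of this rise lay in 2 genes. Myl4 had 426 to 494 CPM in WT pools and 1040 and 1110 CPM in KO pools. Myl7 had 186 to 361 CPM in WT pools and 430 and 646 CPM in KO pools. Pam, the most abundant gene of the list, stayed inside the WT range of 1215 to 1621 CPM, at 1618 and 1427 CPM in KO pools. Of the 17 atrial genes tested, 2 were called, both upward, against 2.05% of all genes tested, and the median log2 fold change was 0.18. The likelihood ratio test called 5 and DESeq2 6 of them, Myl7 among both, against 933 and 1122 of all 14880 genes tested. The sixth, Kcnj5, a subunit of the atrial potassium channel, was lower at -0.61 (adjusted p = 0.180 in the quasi-likelihood test) and below every WT pool in both KO pools. Of the 17 genes 5 were lower. The called genes were Myl4, an atrial light chain that is also fetal in the ventricle, at 1.21 (SE 0.184, adjusted p = 0.0343), and Bmp10, a trabecular and atrial growth factor, at 1.10 (SE 0.25, adjusted p = 0.0821). Myl7, the atrial regulatory light chain, had 572, 315 and 611 FPKM in WT and 729 and 1095 FPKM in KO pools, a log2 fold change of 0.87 (SE 0.289, adjusted p = 0.180), beside 0.82 for Nppa. Against Myl7, Nppa was at 1.18, 4.04 and 1.74 times its FPKM in WT pools and at 1.93 and 1.95 times in KO pools, inside the WT range. The part of the atrial share of the tissue in the level of Nppa was not tested.

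The median log2 fold change of the 10 trabecular genes was 0.01, and their sum of 436 to 536 CPM in WT pools overlapped with the 363 and 448 CPM of KO pools. Bmp10 was called upward in this list and Irx3, a transcription factor of the trabecular conduction lineage, downward at -0.99 (SE 0.237, adjusted p = 0.0955), both being named after their values were seen. The 12 ventricular genes had a median of 0.01 with none called (2 at an unadjusted p under 0.05, and 2 calls each in DESeq2 and the likelihood ratio test), and summed to 22685 to 28371 CPM in WT and to 34391 and 25255 CPM in KO pools. None of 8 epicardial genes was called by the quasi-likelihood test, with 4 at an unadjusted p under 0.05, a median of 1.05 and 1 call by each of the other tools. The same holds for 10 fibroblast genes, with 1 at an unadjusted p under 0.05, a median of 0.09 and 1 call by each of the other tools. Over all genes tested, 18.6% had an unadjusted p under 0.05 in the quasi-likelihood test. Of all 14880 genes tested, DESeq2 called 1122 and the likelihood ratio test 933.

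**Figure D5:**
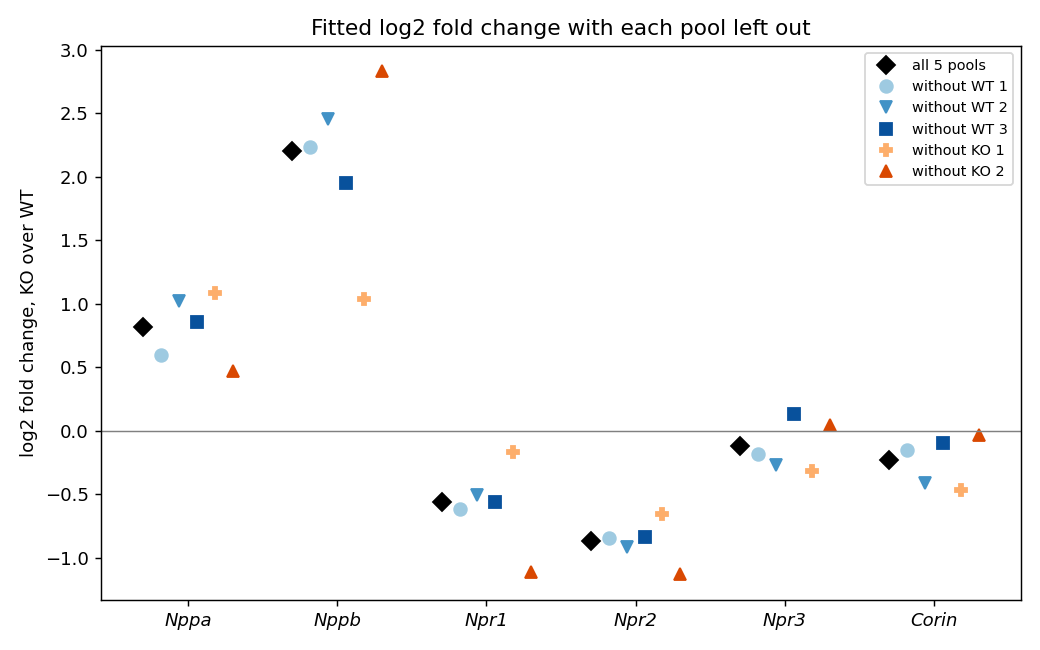
Fitted log2 fold change, KO over WT (vertical axis), of the 6 genes with all 5 pools (black diamonds) and in the fits that leave 1 pool out (other symbols). Nppb ranges from 1.04 without KO pool 1 to 2.83 without KO pool 2, Npr1 from -0.17 to -1.11 for the same pools, Npr2 stays between -1.13 and -0.65, and Npr3 crosses 0.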

How the data were processed

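Hearts were pooled by genotype before RNA extraction, and libraries were made with a stranded mRNA kit. The authors trimmed the 150-nt paired-end reads with Cutadapt and Trimmomatic, discarded those under 35 nt, aligned them to GRCm38 with STAR, and deposited raw counts of fragments per gene of Ensembl release 87 from the reverse-strand column. Their deposited table of FPKM was not used here. FPKM was computed from the counts with TMM factors and the summed exon length of GENCODE M21, to which 49411 of the deposited genes matched (23 tested genes without a length were given 1 kb).

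Computation used R 4.3.3 with edgeR 4.0.16 (glmQLFit with legacy = FALSE), limma 3.58.1 and DESeq2 1.42.0. The alternatives were other tests, normalizations, filters and thresholds, a replicate block, a length and GC correction, and each pool left out. The count filter, TMM and thresholds are those the authors describe, who used the likelihood ratio test, tried here as an alternative. Standard errors come from the fitted log2 fold change divided by √F. The pipeline was tested on simulated data. The members, the lists and the tests were chosen with earlier results of these data known. The genes named are the 6 members, called pathway genes and up to 10 others by FPKM, up to 3 per marker list, tested neighbours (1 is not reported here), the 3 genes most like each of Nppa and Nppb over the pools, and Charme. Pools are the replicates, and intervals cover only the spread between them.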

Additional observations from a re-analysis of the deposited data

How the results depend on the processing

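All alternatives kept the direction of Nppa, Nppb, Npr1, Npr2 and Corin, and 20 were run on each gene. Npr3 turned sign with the replicate number as a block (0.13), with the block and the length and GC correction (0.046), and in the range from -0.31 to 0.14 with each pool left out. Nppb lost its call in the robust test (2.20), at an adjusted p under 0.05 (2.20), with the block and the correction (1.46), and without normalization factors (1.97), and ran from 1.04 to 2.83 with each pool left out. Npr2 lost its call in the legacy (-0.86) and robust (-0.86) tests, with upper-quartile factors (-0.83), no filter (-0.89), an adjusted p under 0.05 (-0.86), the block (-0.85), the block and the correction (-0.73) and no normalization factors (-0.999), and ran from -1.13 to -0.65 with each pool left out. Nppa was called by DESeq2 (0.82) and without KO pool 1, and ran from 0.48 to 1.09, Npr1 from -1.11 to -0.17, and the difference of the Nppb to Nppa ratio from -0.033 to 2.38. The cause was not tested. The number of genes called, 305 (227 higher), was 355 with the length and GC correction (230 higher), 933 by the likelihood ratio test, 1122 by DESeq2, 111 at an adjusted p under 0.05, 131 with the block and the correction, 105 without normalization factors, and 0 to 4607 with each pool left out, the 4607 without KO pool 2 and the 0 of the edgeR quasi-likelihood test without WT pool 3, where 1315 genes had an unadjusted p under 0.05. The fit without normalization factors was added after seeing the data, and moved the median of all genes from 0.02 to -0.13. The replicate numbers are not known to pair the pools: deviations of same-numbered pools had correlations of 0.18 and 0.12 in 2 pairs, and the fit with the block called 210 genes. Where a genotype had 1 pool left, it was assumed to vary like the other. The comparison with the authors' FPKM was not run, because that table was not used.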

Other observations

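Genes that respond to load or stretch in cardiomyocytes were read beside the peptides in a list of 20, of which 19 were tested. Of these, 17 were higher, Nppa and Nppb among them, where 7715 of all 14880 genes tested were higher. The 2 lower genes were Xirp1 at -0.33 and Gdf15, a gene of low level, at -0.68 (adjusted p = 0.393 and 0.448 in the quasi-likelihood test). Both lower genes lay below every WT pool in both KO pools, and 9 of the 19, Nppa and Nppb among them, lay above. Over all genes tested, 18.2% lay below and 17.8% above. An unadjusted p under 0.05 in the quasi-likelihood test was reached by 9 of the 19, against 18.6% of all genes. The likelihood ratio test called 5 and DESeq2 7, against 933 and 1122 of the 14880 genes tested. The quasi-likelihood test called 3 of the 19, all upward, against 2.05% of all genes tested. They were Nppb itself, Ankrd1, a stretch-responsive titin-binding protein, and Ccn2, a matricellular growth factor. Without Nppa and Nppb the list had a median log2 fold change of 0.56, against 0.02 over all genes tested. Ankrd1 and Ccn2 were picked out after their values were seen. Ankrd1 had 124, 130 and 113 FPKM in WT pools and 817 and 265 FPKM in KO pools (log2 fold change 2.14, standard error 0.374, adjusted p = 0.0423 in edgeR's quasi-likelihood test), and Ccn2 38.9, 28.4 and 22.8 FPKM against 158 and 47.9 FPKM (1.78, standard error 0.406, adjusted p = 0.0836). All 3 called genes were higher in KO pool 1 than in KO pool 2. The FPKM of Nppb was 1.08, 1.30 and 0.703 times that of Ankrd1 in WT pools and 1.12 and 0.987 times in KO pools, so the ratio overlapped while both genes rose. Myh7, the slow myosin heavy chain and the most abundant gene of the list after Nppa, was at 0.68 (adjusted p = 0.335), and Csrp3, a Z-disc protein, at 0.75 (adjusted p = 0.212).

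Among 3950 protein-coding genes with a mean of at least 10 FPKM, those whose log2 CPM followed Nppb most closely over the 5 pools were Cnih1, Gtf3c6 and Pdlim1 (Pearson r of 0.9995, 0.999 and 0.999). For Nppa they were 1700123O20Rik, Olfml2b and Pgam1 (0.987, 0.980 and 0.976). With 5 pools and so many candidates, high values arise easily, and these are given as a description.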
